A study of Mus musculus with 15 samples.

Results

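Islands of monomethylated histone H3 lysine 4 (H3K4me1) that held no peak of the dimethylated form (H3K4me2) were described in αTN4, an epithelial line that SV40 T antigen transformed and that derives from mouse lens. They were chosen by their overlap with H3K4me2 peaks: an island of the control αTN4 H3K4me1 list was a member if not 1 base of it lay in an H3K4me2 peak of control αTN4 cells, of αTN4 cells carrying Pax6 shRNA, or of newborn lens. This left 6813 of 38007 islands (17.9%), which are called H3K4me2-free islands here, and 31194 islands with H3K4me2. The name refers to listed peaks and does not state that the mark was absent.

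Chromatin immunoprecipitation with sequencing (ChIP-seq) was available from αTN4 cells carrying a control shRNA (H3K4me1, H3K4me2, H3K4me3, RNA polymerase II and Pax6), from αTN4 cells carrying Pax6 shRNA (the 3 H3K4 marks; Pax6 KD below) and from postnatal day 1 lens of CD-1 mice (H3K4me2). Per the study's methods, the shRNA lines were puromycin-selected pools of infected cells and not single clones. Every list came from 1 library per condition as labelled, so the control and KD values have no replicate spread and no p-value is given. Intervals are 95% Wilson intervals for shares and 95% order-statistic intervals for medians, they cover counting error only, and islands are not replicates of a condition.

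H3K4 methylation is deposited by the Mll and Set1 enzymes together with the shared Wdr5, Rbbp5, Ash2l and Dpy30 subunits. H3K4me1 is the broadest of the marks and is found at enhancers and along the flanks of active genes, including enhancers that are primed and not yet active. H3K4me2 is found at active promoters and strong enhancers and often at sites occupied by transcription factors, and H3K4me3 is found at active promoters. Pax6 is a paired domain and homeodomain transcription factor required for lens development.

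Pax6 peaks fell in 18 of the H3K4me2-free islands, and the 101-base windows centred on some of their summits are shown because these are the places where a lens regulator was recorded on H3K4me1 with no H3K4me2 peak. The sequences were read from the mm9 (NCBIM37) genome, forward strand, and capitals mark a match on either strand to TTCANGC, a part of the Pax6 paired domain motif, or to TGANTCA, the AP-1 motif. The first 4 windows hold a match, and the last window, with none, is shown for its repeated letters. The windows shown are not typical of the 18: TTCANGC matched in 4 of the 18 and TGANTCA in 2.
Intergenic, chr19:54632620-54632720: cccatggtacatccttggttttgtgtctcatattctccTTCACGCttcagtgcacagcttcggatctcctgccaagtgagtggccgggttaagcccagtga
Zbtb5 intron, chr4:45011057-45011157: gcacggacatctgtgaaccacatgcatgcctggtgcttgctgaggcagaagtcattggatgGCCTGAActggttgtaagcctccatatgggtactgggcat
Cgrrf1 intron, chr14:47462920-47463020: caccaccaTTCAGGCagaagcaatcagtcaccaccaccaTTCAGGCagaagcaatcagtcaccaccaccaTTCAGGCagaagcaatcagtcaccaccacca
Htra1 intron, chr7:138101388-138101488: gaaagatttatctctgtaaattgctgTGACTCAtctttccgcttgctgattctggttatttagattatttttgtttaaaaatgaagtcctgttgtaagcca
Intergenic, chr3:100068710-100068810: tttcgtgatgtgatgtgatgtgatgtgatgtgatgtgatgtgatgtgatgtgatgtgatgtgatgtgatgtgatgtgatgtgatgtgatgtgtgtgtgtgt

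H3K4me2-free islands were shorter and carried fewer reads than islands with H3K4me2. Their median width was 2600 bp (2600 to 2800) against 3200 bp, and their median number of ChIP reads was 45 against 65. Reads per kb, the ChIP reads of an island divided by its width, had a median of 17.6 (17.5 to 17.7) against 21.2 (21.2 to 21.3), and the middle 50% of the H3K4me2-free islands lay between 15 and 21. The 2 classes overlapped widely. Together the H3K4me2-free islands covered 20025000 bp, 13.4% of the length of all islands, and held 347167 ChIP reads, 10.6% of the reads in islands. H3K4me2 and H3K4me1 were read in the same cells, so these levels describe the class that the rule formed.

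**Figure D1:**
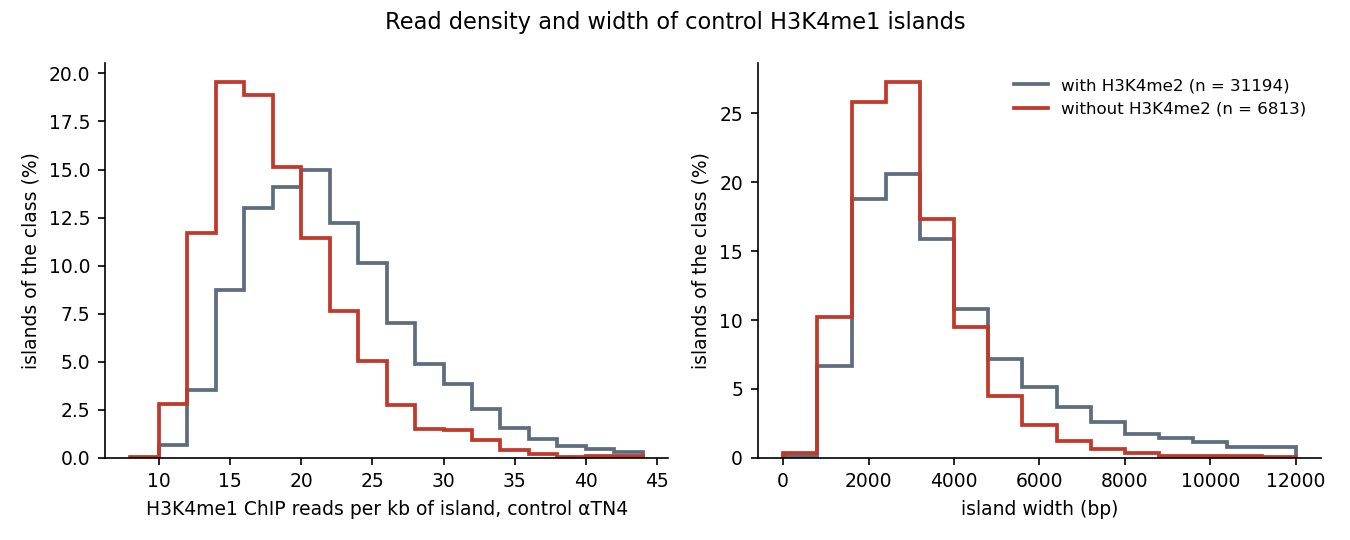
Distributions of H3K4me1 ChIP reads per kb (left) and of island width in bp (right) in control αTN4 cells, as the share of islands of each class per bin, with H3K4me2-free islands in red and islands with H3K4me2 in grey. The red curves sit to the left, with medians of 17.6 against 21.2 reads per kb and 2600 against 3200 bp.

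The input reads at the same places did not follow this order. H3K4me2-free islands had a median of 13.3 input reads per kb (13.2 to 13.4) against 12.7, and 1323 of them (19.4%) had more input than ChIP reads, against 1791 (5.74%) of the islands with H3K4me2. These counts are not scaled to each other, so more input than ChIP reads does not mean no enrichment. The H3K4me2-free island chr7:71434201-71438400, with 60 ChIP and 60 input reads, had a fold over input of 2.13. The fold over input that the island caller gave, which scales the 2 libraries, had a median of 2.82 against 3.65. Islands with a false discovery rate above 1e-06, the weaker end of the list, made up 21.6% of the H3K4me2-free islands and 5.10% of the others.

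The H3K4me2-free island with the most ChIP reads lay in an intron of Nuak1, an AMPK-related kinase (chr10:83871601-83889600), with 358 ChIP and 237 input reads over 18000 bp. The lowest false discovery rate belonged to an island in an intron of Wnt7a, a Wnt ligand (chr6:91326201-91337800, 7.36e-98), with 293 ChIP and 133 input reads. The widest island, 19600 bp, lay in an intron of Fbln2, which encodes the extracellular matrix protein fibulin 2 (chr6:91187001-91206600), with 293 ChIP and 187 input reads. An intron of Nt5e, the ecto-5′-nucleotidase CD73, held 295 ChIP and 279 input reads (chr9:88247601-88259000). All 4 were overlapped by an H3K4me1 island in Pax6 KD cells, and the single KD island over the Wnt7a region was 23600 bp wide, with 368 ChIP reads, against 11600 bp in control cells. Densities of KD and control islands named here are taken over islands of different width and are not scaled for library depth, so they are given with both widths and not as changes at 1 place.

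Among islands of at least 2 kb, the highest density was 51.7 ChIP reads per kb in an intron of Coro2a, a coronin that binds actin (chr4:46566001-46568400), and the KD island over it was 21600 bp wide against 2400 bp, with 22.1 reads per kb over that length. A region 63.9 kb from the start of Taf2, which encodes a TFIID subunit (chr15:54837801-54839800), held 41.5 ChIP and 15 input reads per kb, carried a Pax6 peak, and had no KD island. An intron of Zfand2a, a zinc finger gene of the stress response (chr5:139954601-139957800), held 39.1 reads per kb over 3200 bp in control and 19.8 over 4800 bp in KD cells. High density did not always go with low input. The second densest island, chr13:74666001-74668600, held 43.8 ChIP and 66.2 input reads per kb, and the intergenic island chr9:85895401-85913000 held 346 ChIP and 620 input reads.

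Some islands lay close to the border of the rule on either side. The nearest H3K4me2 peak of any of the 3 lists lay at a median of 5574 bp (5411 to 5765). It was within 1 kb of 376 H3K4me2-free islands (5.52%), within 5 kb of 46.1%, and over 20 kb away from 831 (12.2%). The 5 islands just inside the rule had gaps of 1, 7, 8, 10 and 14 bp to a peak, and the 5 just outside overlapped one by 3, 3, 4, 5 and 12 bp. Of the islands with H3K4me2, 119 had at most 200 bp in H3K4me2 peaks, and 1351 had at most 10% of their length in them. By list, the median distance was 7.69 kb to control, 8.55 kb to Pax6 KD and 12.6 kb to newborn lens peaks. The most remote was chr15:14522001-14524600, 495 kb from any H3K4me2 peak and 1419 kb from the nearest start, that of Cdh6, a cadherin gene, with 52 ChIP and 28 input reads.

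The largest set of islands with H3K4me2, 14771, overlapped peaks of control and Pax6 KD αTN4 cells and none of lens, and 11977 overlapped all 3 lists. The lens list alone removed 1006 islands that had no H3K4me2 in αTN4 cells of either kind. These 1006 resembled the H3K4me2-free islands in summed density (17.02 against 17.34 ChIP reads per kb) and lay in gene bodies more often (65.2%, 62.2 to 68.1).

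H3K4me2-free islands lay away from promoters. Their share near a start, meaning at most 2 kb from where a protein-coding transcript begins, was 6.31% (430 islands, 5.76 to 6.91), against 29.2% of islands with H3K4me2 and 25.1% of all control islands. The median distance to a start was 24.9 kb against 15.3 kb. Sorted by place, 47.5% lay in introns, 3.16% in exons and 43.1% between genes, against 31.2%, 1.61% and 38.01%. H3K4me2 is found at active promoters, so the low share near a start is not independent of the rule. Of the 1006 islands with H3K4me2 of lens alone, 12.7% lay near a start.

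The midpoint lay in a protein-coding gene body for 55.0% (3746 islands, 53.8 to 56.2), near the 53.6% of islands with H3K4me2 and the 53.9% of all islands, while gene bodies cover 37.7% of the chromosomes used. Among islands farther than 2 kb from any start the classes separated, at 54.0% (52.8 to 55.2) against 46.3% (45.7 to 47.0). The base composition differed little, with a median GC content of 45.6% against 45.5% and 9.44 against 10.4 CpG per kb. Away from starts the CpG medians were 9.33 and 9.78 per kb.

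**Figure D2:**
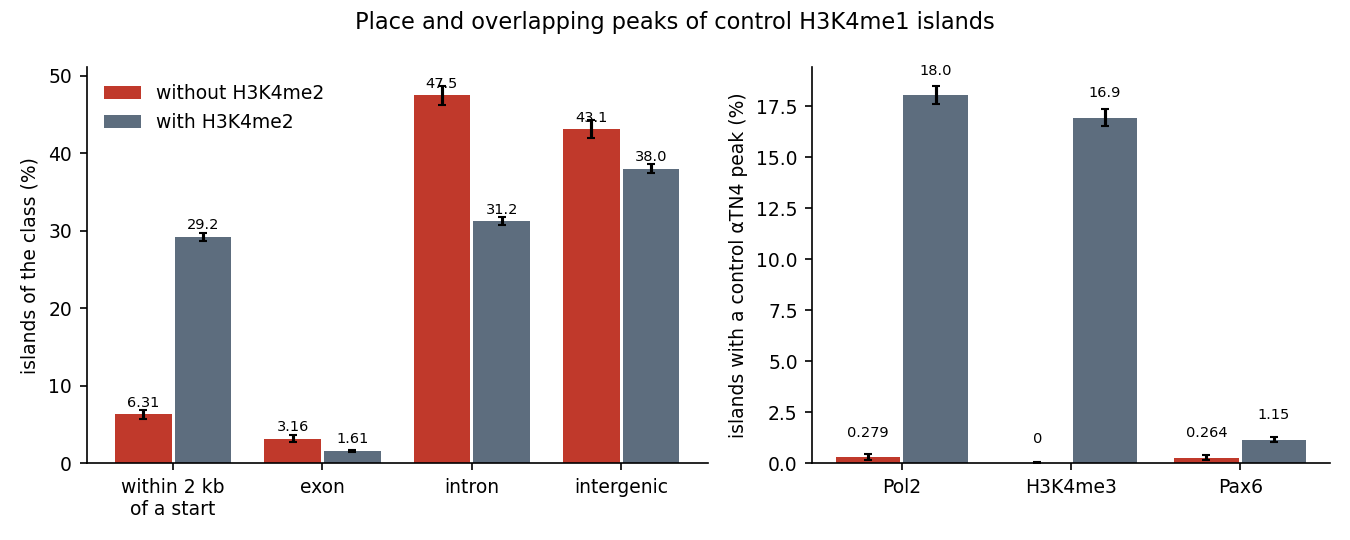
Share of control αTN4 H3K4me1 islands by place (left) and with an overlapping peak of Pol2, H3K4me3 or Pax6 of control αTN4 cells (right), in per cent of each class, with 95% Wilson intervals. Red bars, H3K4me2-free islands; grey bars, islands with H3K4me2. The red bars are lower at starts (6.31 against 29.2) and for all 3 peak lists, and higher in introns (47.5 against 31.2).

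Within genes, H3K4me2-free islands lacked the crowding toward the 5′ end that the other islands had. Counting each island once per gene that held its midpoint, 18.8% lay in the first of 5 equal parts of the gene and 18.2% in the last, against 32.8% and 14.5% of the islands with H3K4me2. With islands within 2 kb of a start left out, the first part held 17.5% of both classes and the last 18.5% against 19.6%.

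The genes that held H3K4me2-free islands were mostly genes with an active promoter. Of the 3746 islands in gene bodies, 71.4% (69.9 to 72.8) lay in a gene with both an H3K4me3 and a Pol2 peak of control cells within 2 kb of a start and 22.5% (21.1 to 23.8) in a gene with neither. For islands with H3K4me2 the shares were 72.7% and 20.1%. Per Mb of gene, genes with both peaks held 5.47 H3K4me2-free islands and genes with neither held 1.995, and islands with H3K4me2 were in the same order, at 25.1 and 7.97. H3K4me2-free islands made up 17.9% and 20.02% of the islands counted in these 2 gene classes. Among the longest genes, with all genes cut into 3 classes of equal number by length, the densities of H3K4me2-free islands were 5.75 and 1.74 per Mb, and those of the others 21.4 and 7.07.

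Of 22350 protein-coding genes, 2462 (11.02%) held at least 1 H3K4me2-free island, 66 held 5 or more, and 514 held such islands and no island with H3K4me2. The count was headed by Fgfr2 (38 islands), Gm20388 (38) and Arfip1 (19), 3 gene models that span 3009, 4435 and 1391 kb in this annotation and include other genes. Kif26b, a kinesin family gene (ENSMUSG00000026494.6, chr1:180459256-180862986), came next with 16, against 7 islands with H3K4me2. The other genes of the first 10 were Camk1d, a calcium/calmodulin-dependent kinase (10), Odz4, a teneurin (10), Ptprm, a receptor tyrosine phosphatase (9), Smyd3, a SET and MYND domain methyltransferase (8), Farp1, a FERM and RhoGEF domain protein (7), and Fndc1, a fibronectin type III domain protein (7). Kif26b and Smyd3 lie side by side on chromosome 1.

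The 16 islands in Kif26b ranged from 1800 to 6600 bp and from 13.0 to 33.3 ChIP reads per kb, with a median of 17.6, and their median input was 14.7 reads per kb. In Pax6 KD cells 9 of the 16 were overlapped by an H3K4me1 island. At chr1:180637801-180639600, the densest, the island held 33.3 reads per kb in control and 27.2 in KD cells, with both islands 1800 bp wide. At chr1:180592601-180599200, the widest, 86 ChIP and 93 input reads were counted in control cells and no KD island was listed. The Kif26b islands thus reached from densities well above the class median to islands with fewer ChIP than input reads, as counted before scaling.

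Counted per length, among genes with 5 or more, Fndc1 was first (chr17:7931434-8020167, 7.89 per 100 kb). Its 7 islands held 39 to 111 ChIP reads at 15 to 25 reads per kb, against 2 islands with H3K4me2, and 6 of the 7 had a KD island. Ube2h, a ubiquitin-conjugating enzyme, followed with 6.43 per 100 kb. Its 6 islands held 14.6 to 23.8 ChIP reads per kb with a median input of 17.8, and 3 had a KD island. Snx9, a sorting nexin (5.52 per 100 kb), Dgkd, a diacylglycerol kinase (5.48), and Gng12, a G protein gamma subunit (4.80), came after them. All of these but Fndc1 had both H3K4me3 and Pol2 peaks at the promoter, and Fndc1 had H3K4me3 and no Pol2 peak.

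Gene lists are given against the 11.02% of all genes with an H3K4me2-free island. Median gene length stands in brackets beside each list, since the share was 0.711% in the shortest, 6.24% in the middle and 26.1% in the longest of the 3 length classes. Of 16 collagen and laminin genes 9 held one (median length 117 kb), among them Lamc1 with 3 and Col5a2 with 2. Of 21 cytoskeleton and adhesion genes 11 did (104 kb), led by Tns3, a tensin, with 6, of which 5 had a KD island, and including Lpp with 4. In the FGF pathway, which drives lens fibre differentiation, 5 of 15 did (58.4 kb): besides the long Fgfr2 model these included Frs2, an adaptor of the receptors, with 4, and Grb2 and Ptpn11 with 2 each. The TGF-beta and BMP list had 5 of 21 (68.9 kb), with 6 islands in Ltbp1, a latent TGF-beta binding protein, of which 5 had a KD island, 3 in Bmpr1a and 2 each in Bmpr2 and Acvr1. Islands with H3K4me2 lay in 37.1% of all genes. They lay in 15 collagen and laminin, 20 cytoskeleton and adhesion, 10 FGF and 13 TGF-beta and BMP genes of these lists. The lists thus stood above all genes for both classes of island. Against the 26.1% of the longest length class, the shares with an H3K4me2-free island were 56.25, 52.4, 33.3 and 23.8% in the order given. The TGF-beta and BMP list was thus not above the longest genes, and the part of gene length was not tested.

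None of 16 crystallin genes (3.83 kb) and 1 of 18 lens transcription factor genes found (21.5 kb) held an H3K4me2-free island, shares near the 0.711% and 6.24% of the length classes that hold these medians. The gene was Meis1, a homeobox gene, with islands of 17.5, 21.3 and 26.7 ChIP reads per kb and no KD island over any of the 3. Among 20 writers and erasers of H3K4 methylation (40.5 kb), Mll1 and Kdm5c held 1 each, with no island with H3K4me2 in either gene body, and Smyd3 held 8. Of 20 neuronal genes, although very long (1101 kb), 3 held one, among them Dlg2 with 3 and Syt1 with 1. None of 83 ribosomal protein genes (3.23 kb), 3 of 1113 olfactory receptor genes (0.96 kb) and 1 of 9 blood and endothelial markers (42.9 kb), Pecam1, held one.

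Of 10 genes that the study follows as Pax6 targets or example loci (98.3 kb), 4 held H3K4me2-free islands: Farp1 with 7, Tshz2, a zinc finger homeobox gene, with 7, and Plekha1, a pleckstrin homology domain gene, and Dhrs3, a retinaldehyde reductase gene, with 1 each. Pax6, Prox1, Cap2, Zfp536, Csf1 and Eya4 held none. In Farp1 the islands held 13.8 to 19.4 ChIP reads per kb, and 3 of 7 had a KD island. In Tshz2 they held 13.8 to 25.6, and 3 of 7 had one. Around Plekha1, within 50 kb of the gene, 4 islands held 53, 117, 81 and 101 ChIP reads, and the second and the last had a KD island. The last is the Htra1 intron island whose Pax6 summit is shown above.

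H3K4me3 was recorded in none of the H3K4me2-free islands. No control H3K4me3 peak overlapped any of the 6813, which allows a share of up to 0.0440% by the limit of 3 counts for a count of 0 and of up to 0.0564% by the Wilson interval, and no Pax6 KD H3K4me3 peak did, against 16.9% of islands with H3K4me2 and 13.9% of all control islands that overlapped a control peak. The H3K4me3 lists were not part of the rule, but H3K4me3 and H3K4me2 peaks occupy the same promoters. The nearest control H3K4me3 peak was within 5 kb of 6.93% of the H3K4me2-free islands and 29.3% of the others. Of the 1006 islands with H3K4me2 of lens alone, 3 (0.298%) overlapped a control H3K4me3 peak.

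Pol2 peaks were rare. They overlapped 19 H3K4me2-free islands (0.279%, 0.179 to 0.435) against 18.04% of islands with H3K4me2 and 14.9% of all. Counting a peak within 1 kb of an island as well, the share was 0.528%. With islands within 2 kb of a start left out, the shares were 0.266% and 9.30%, and the median distance to a Pol2 peak was then 36.3 kb against 38.2 kb. A Pol2 peak stood within 5 kb of 9.17% against 35.8%. The low share was not particular to the H3K4me2-free islands. Of the 1006 islands with H3K4me2 of lens alone, 7 (0.696%) overlapped a Pol2 peak. H3K4me2 is found at active promoters and strong enhancers, so the share with Pol2 is not independent of the rule.

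The strongest of the 19 were peaks that reached over an island's edge. In 4 islands the leading peak had a fold over background above 20, and in all 4 its summit lay outside the island. Among these were 2 islands in Tex14, a gene of germ cell bridges on chromosome 11 (folds 83.4 and 73.1). Another had its midpoint in the body of Nfkbie and lay 0.309 kb from the nearest start, that of Slc35b2 (25.9). In the other 15 the leading peak had a fold of 2.25 to 7.09. Of these the strongest lay at the start of Nfe2, an erythroid bZIP factor gene (chr15:103078201-103082400), with 51 ChIP and 46 input reads, and the H3K4me1 island there had no KD counterpart. Of the 19 islands, 4 had a KD island, and none carried a Pax6 peak.

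Pax6 peaks overlapped 18 H3K4me2-free islands (0.264%, 0.167 to 0.417) against 1.15% (1.04 to 1.28) of islands with H3K4me2 and 0.995% of all. They were 3.57% of the 504 Pax6 peaks, of which 365 lay in islands with H3K4me2 and 121 in no island. Their height was similar, with a median fold of 7.06 against 7.09 in islands with H3K4me2, although the highest was 13.0 against 20.7. The 18 islands held 32 to 131 ChIP reads with a median of 53, against a median of 138 in the islands with both H3K4me2 and a Pax6 peak. Between genes lay 12 of them, in introns 6 and within 2 kb of a start none, and 5 were over 20 kb from any H3K4me2 peak. Among the 1006 islands with H3K4me2 of lens alone, 9 (0.895%, 0.471 to 1.69) overlapped a Pax6 peak.

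The highest of these Pax6 peaks, at chr19:54632401-54634000, had a fold of 13.0 and a −log10 q of 27.5, with 33 ChIP and 15 input reads for H3K4me1, and lay 41.4 kb from H3K4me2 and 513 kb from the nearest start, that of Adra2a, an adrenergic receptor gene. The Zbtb5 intron peak had a fold of 10.9 and a −log10 q of 27.1. There the control island held 110 ChIP and 120 input reads, and a KD island covered all of it. The Cgrrf1 intron peak, fold 10.3, lay on a tandem repeat: its window held 28 different 6-base words out of 96, and the window on chromosome 3 held 12, against 91 to 96 in the other 16 windows. The Htra1 intron peak, fold 9.62, sat in an island of 101 ChIP and 41 input reads, with 20.2 reads per kb over 5000 bp in control and 15 over 6400 bp in KD cells.

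TTCANGC occurred in the windows of 4 of the 18 peaks (22.2%, 9.001 to 45.2), against 14.3% of all 504 Pax6 summit windows. TGANTCA occurred in 2, against 12.3% of all, and CCGGAA, an Ets core word, in 1, against 4.56%. Both strands were searched in each case. The intervals for 18 windows hold the shares of all windows, so no difference could be resolved at this number.

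Pax6 KD cells had an H3K4me1 island over 1938 H3K4me2-free islands (28.4%, 27.4 to 29.5), against 50.1% (49.5 to 50.6) of islands with H3K4me2 and 46.2% of all control islands. The KD list is shorter, with 18417 islands, and a loss of a listed island cannot be told apart from a lower yield of the KD library. With at least 50% of the island's length required to be covered, the shares were 25.8% and 46.3%. Away from starts they were 28.2% and 52.9%. The Pax6 KD H3K4me2 list was part of the rule, and with the control H3K4me2 list alone as the rule the shares were 30.2% and 50.8%. Among the 1006 islands with H3K4me2 of lens alone, 380 (37.8%, 34.8 to 40.8) had a KD island. Their median was 51 ChIP reads, against 45 in the H3K4me2-free islands.

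The share kept followed the number of reads in the island. When all control islands were ordered by ChIP reads and cut into 5 groups of near equal size, 15.4, 23.4, 36.6, 58.3 and 86.3% of the H3K4me2-free islands in successive groups were kept, and 13.5, 21.8, 38.1, 65.7 and 93.4% of the islands with H3K4me2. In the lower 3 groups the classes were thus within 2 percentage points of each other, and in the upper 2 the H3K4me2-free islands were kept less often. The highest group ran from 109 to 12906 reads and no H3K4me2-free island exceeded 358, so the classes were not matched in reads within it. The H3K4me2-free islands were concentrated in the low groups, with 2402 in the lowest and 160 in the highest, against 5211 and 7352 of the others.

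Ordered by reads per kb, the picture differed. In the lowest of 5 groups 22.8% of H3K4me2-free islands and 24.1% of the others were kept. In the highest the shares were 33.3% (29.4 to 37.5) and 72.6% (71.6 to 73.6). The classes were not alike in width there, with medians of 1200 and 3000 bp, against 3400 and 3600 bp in the lowest group. In the groups of the island caller's fold over input the share of H3K4me2-free islands kept fell from 32.3% in the lowest to 17.2% in the highest, whereas for islands with H3K4me2 it was 42.9% and 50.1%. A higher fold thus went with a lower share kept among H3K4me2-free islands and not among the others. From the lowest to the highest fold group the median width fell from 3200 to 1800 bp in H3K4me2-free islands. In the others it fell from 3600 to 2800 bp. Median input fell from 15.9 to 8 and from 16.6 to 9.29 reads per kb, and the part of width and input was not tested.

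**Figure D3:**
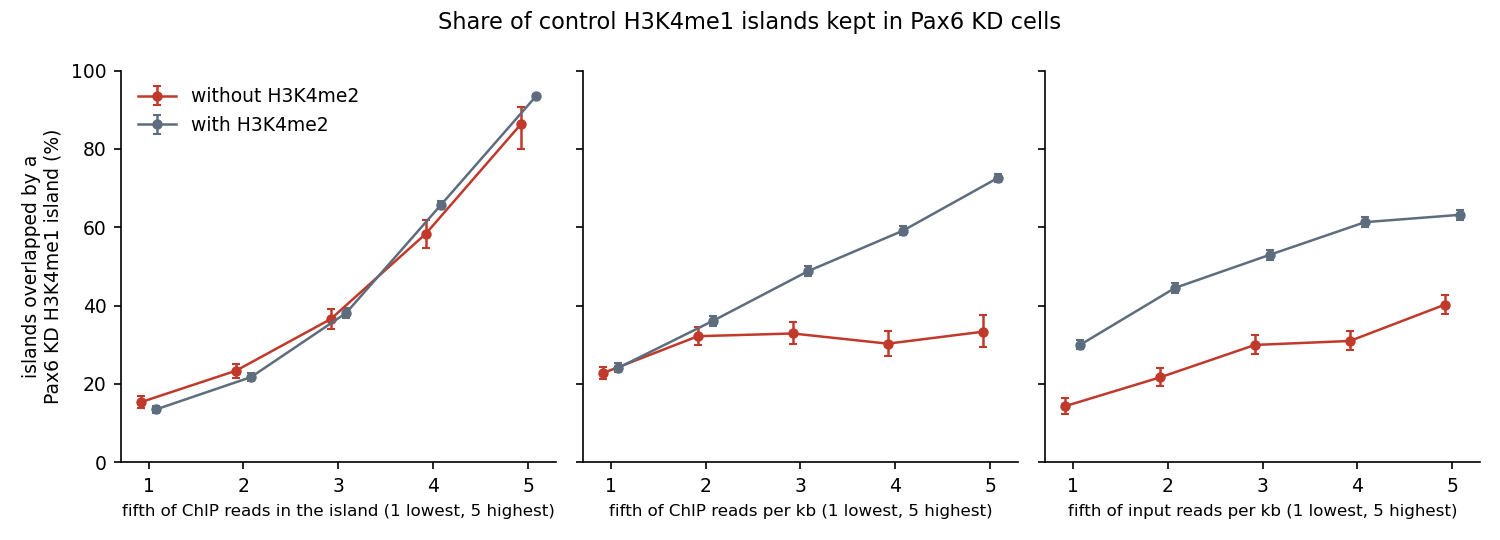
Share of control αTN4 H3K4me1 islands overlapped by a Pax6 KD H3K4me1 island, in per cent with 95% Wilson intervals, in 5 groups of all control islands ordered by ChIP reads (left), ChIP reads per kb (middle) or input reads per kb (right). Red, H3K4me2-free islands; grey, islands with H3K4me2. By ChIP reads the curves lie close together (15.4 and 13.5% in the lowest group, 86.3 and 93.4% in the highest), and by reads per kb they part (33.3 and 72.6% in the highest group). In that last group the median widths were 1200 and 3000 bp.

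Input density moved with these shares. In 5 groups by input reads per kb, H3K4me2-free islands kept rose from 14.3% to 40.2% and islands with H3K4me2 from 29.997% to 63.2%, and in each group the H3K4me2-free islands were kept less often. Distance to H3K4me2 moved with the share too. Of the H3K4me2-free islands 0.5 to 1 kb from a peak 42.0% (35.8 to 48.4) were kept, of those 2 to 5 kb away 30.5% (28.5 to 32.6), and of those 20 to 50 kb away 20.8% (17.9 to 24.0). The 145 islands within 0.5 kb stood apart from this order, at 29.7% (22.8 to 37.5). Of the 1938 kept, 535 were met by a KD island that also held an H3K4me2 peak beside the control island, and 1403 by KD islands without H3K4me2 alone.

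**Figure D4:**
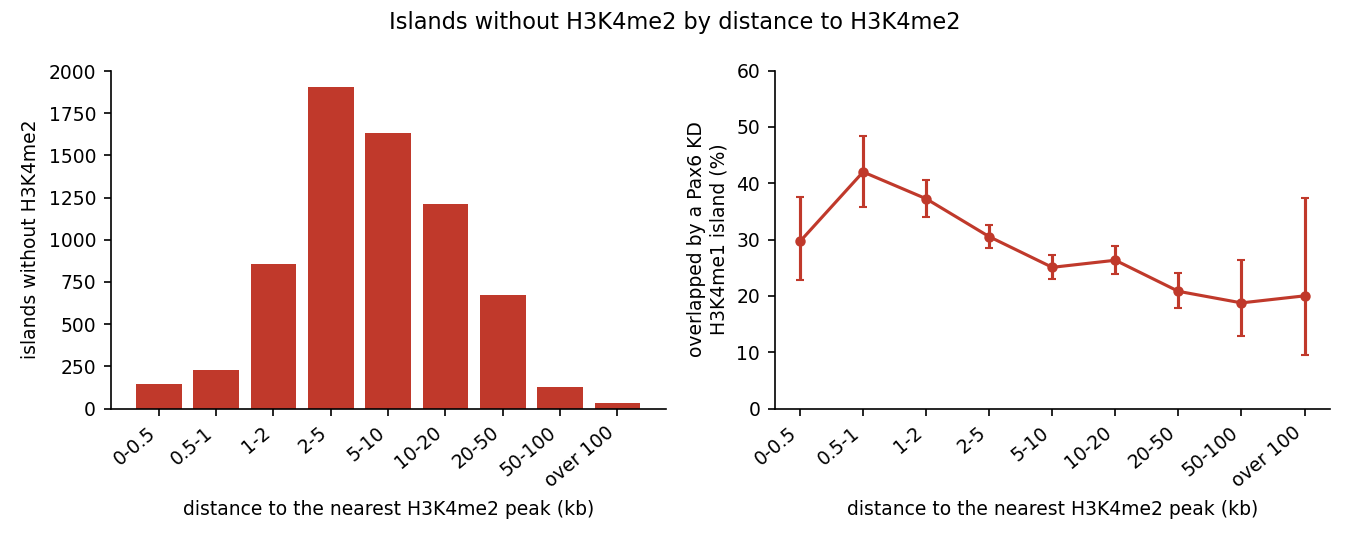
Number of H3K4me2-free islands (left) and the share of them overlapped by a Pax6 KD H3K4me1 island in per cent with 95% Wilson intervals (right), by distance in kb to the nearest H3K4me2 peak of the 3 lists. The number is highest at 2 to 5 kb (1908 islands), and the share is 42.0% at 0.5 to 1 kb and 20.8% at 20 to 50 kb.

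Where 1 control island met 1 KD island and no other, the densities could be compared. For 1322 such H3K4me2-free islands the median was 18.5 ChIP reads per kb in control and 16.4 in KD cells, a median log2 difference of −0.15 (−0.18 to −0.13), against −0.32 for 12441 islands with H3K4me2 and −0.31 for all pairs. Relative to the median of all pairs, H3K4me2-free islands stood 0.15 higher, and 33.4% of them lay below that median. The KD partners were wider than the control islands by a median log2 difference of 0.35, against 0 for islands with H3K4me2, and only islands called in both libraries enter this comparison.

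Islands of both classes were kept more often in genes with an active promoter. In genes with H3K4me3 and Pol2 peaks 34.9% (33.1 to 36.7) of H3K4me2-free islands had a KD island, in genes with neither 22.4% (19.7 to 25.3), and outside genes 24.6% (23.1 to 26.2). For islands with H3K4me2 the shares were 54.02%, 45.8% and 47.7%. The median ChIP reads of the 3 sets of H3K4me2-free islands were 47, 44 and 44. Of the 18 islands with a Pax6 peak 6 were kept (33.3%, 16.3 to 56.3), against 80.3% (75.9 to 84.1) of the 360 with a Pax6 peak and H3K4me2. The reads per island of these 2 sets differ as given above.

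The same rule in Pax6 KD cells gave 2309 of 18417 H3K4me1 islands (12.5%) without H3K4me2 in any list. Of these 1388 (60.1%) overlapped a control H3K4me2-free island and 705 overlapped no control H3K4me1 island. Their median density was 16.1 ChIP reads per kb against 18.1 over all KD islands.

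By chromosome, H3K4me2-free islands made up from 10.5% (X) to 22.7% (17) of the control islands, and the share kept ran from 4.35% (X, 2 of 46) to 41.4% (17, 230 of 555). The median input density of a chromosome's islands moved with both. On chromosomes 2, 3, 15 and 17, at 15 to 15.6 input reads per kb, 19.1 to 22.7% were H3K4me2-free and 34.5 to 41.4% of these were kept. On chromosomes 12, 16, 18 and X, at 7.92 to 8.64, the shares were 10.5 to 13.2% and 4.35 to 12.7%. Chromosomes 9 and 4, at 9.50 and 10.4 input reads per kb, were apart from this order, with 25.2% and 28.8% kept, against 12.3% on chromosome 8 at 10.3. That order uses the input of all islands. The H3K4me2-free islands alone had median inputs of 17.5 on chromosome 9 and 14.6 on chromosome 4, against 10.3 on chromosome 8. αTN4 is a transformed line, and the part of copy number in these differences was not tested.

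**Figure D5:**
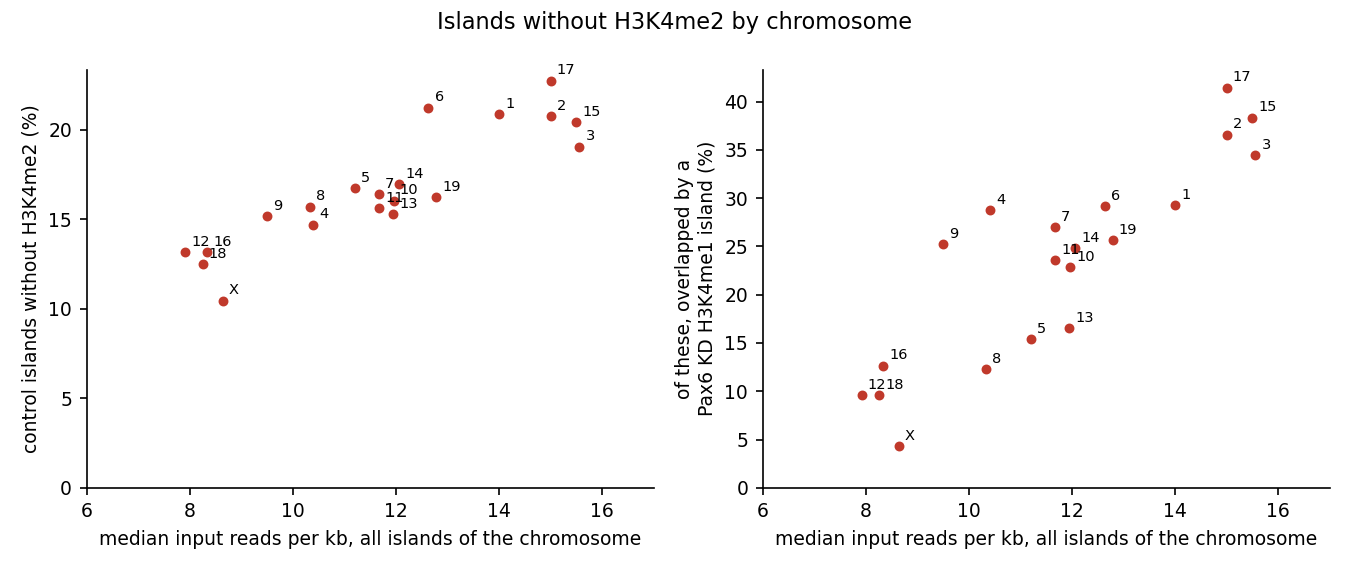
Each point is a chromosome, placed by the median input reads per kb of its control H3K4me1 islands and by the per cent of its islands that are H3K4me2-free (left) or the per cent of these overlapped by a Pax6 KD H3K4me1 island (right). Chromosomes 12, 16, 18 and X lie at the lower left and 2, 3, 15 and 17 at the upper right of both panels.

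Along the chromosomes H3K4me2-free islands were spread among the others. Of their neighbouring islands 20.7% were H3K4me2-free as well, against 17.3% of the neighbours of islands with H3K4me2. There were 246 runs of 3 or more in a row, with 819 islands, and the longest had 8 (chr17:14577001-14678000). A run of 6 at chr6:30145801-30194200 included islands of Ube2h.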

How the data were processed

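Region lists deposited for ChIP-seq of control and Pax6 shRNA αTN4 cells and of newborn lens were used, on mm9 per the submitters' processing notes. Per the file columns, H3K4me1 lists were made by the authors with SICER and give, per island, ChIP and control-library counts (called input reads here), a p-value, a ratio (fold over the control library) and a false discovery rate as a p-value adjusted for multiple tests. The control library of SICER was not named in the sources used here. The other lists are MACS2 narrow peaks, deposited with a fold (ratio) over background, −log10 p, −log10 q, a score and a summit position. Library depths were not given in the files. Peak names of the control H3K4me2 list point to pooled replicates. In the labels the antibody field exchanges Pax6 and Pol2, so libraries were taken by title and source name, which gives 504 Pax6 and 17204 Pol2 peaks. RNA-seq and input libraries were not analysed here.

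Islands on chromosomes 1 to 19 and X were intersected (1 bp) with each list in Python 3.11.15 with NumPy 2.4.6, pandas 2.3.3 and SciPy 1.17.1, and the interval functions were tested on simulated data. Starts, exons and gene bodies came from 51684 protein-coding transcripts of GENCODE vM1, and sequence from NCBIM37 by pysam 0.24.0. The genome was not repeat-masked, so repeat content was not computed. Genes named are the 10 with the most members, the 10 with most per length among those with 5 or more, gene list hits, the islands with the most reads, density or width, and the strongest Pax6 and Pol2 overlaps. The members, gene lists and named islands were chosen with earlier results of these data known. Some genes and islands that this rule names are not reported here. The alternatives changed island and peak thresholds, the overlap that counts and the H3K4me2 lists used.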

Additional observations from a re-analysis of the deposited data

How the results depend on the processing

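No paired analysis was possible because the lists come from 1 library per condition and no test was run. Of 60 alternative values, 41 stayed within the interval of the value reported, or within 1.5 times for the count, which ran from 5339 (islands with a false discovery rate of at most 1e-06) to 8633 (H3K4me2 peaks with −log10 q of at least 5 alone). The 19 others are given next. The share of H3K4me2-free islands kept was 30.2% with the control H3K4me2 list alone, 30.04% with the stricter H3K4me2 peaks, 25.8% with 50% of the length covered and 22.1% with stricter KD islands. For islands with H3K4me2 it was 51.4% with the stricter control islands, and 50.8, 50.9, 46.3 and 45.0% under those 4 in turn. Away from starts, a choice made after seeing the data, it was 52.9%. The difference between the classes lay between 20.5 and 24.7 points under all 8 settings. A Pol2 peak within 1 kb gave 0.528%. An H3K4me3 peak was found in 0.0941% with the control H3K4me2 list alone and within 1 kb of 0.205%. All annotated genes gave 57.7% in gene bodies. The share at starts was 5.50% when H3K4me2 within 1 kb also excluded, 7.19% with the control list alone and 4.45% within 1 kb. Median reads per kb were 18.3 for stricter islands and 18 for stricter H3K4me2 peaks.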

Other observations

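On chromosomes 4, 9 and 19 the H3K4me2-free islands had a higher input density than all islands of the chromosome, with medians of 14.6, 17.5 and 14.9 reads per kb against 10.4, 9.50 and 12.8, while on chromosomes 1, 2, 12 and 17 the medians differed by less than 0.5 reads per kb. Input above 50 reads per kb was found in 14 H3K4me2-free islands and 16 islands with H3K4me2. The 2 classes are of unequal size, so these are 0.205% and 0.0513%.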
